A study of Mus musculus with 27 samples.

Results

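The entries described here are the 5p arms of the mouse miRNAs numbered miR-6896 to miR-7094, a run of names in which nearly every hairpin lies at the 3′ end of an intron. Members were every row of the deposited count table named miR-N-5p, with or without a letter after N, for N from 6896 to 7094. The rule found 200 of the 1842 entries of the table. It left out 201 3p arms with the same numbers, as well as miR-7094-1-5p and miR-7094b-2-5p, whose names carry a second number. The rule used names and no levels, but the block was chosen with earlier results of these data known. At the edges, miR-6896-5p had a mean of 6.92 CPM (counts scaled to a common library size) inside the rule, while miR-6896-3p had 7.01, miR-7094-1-5p 5.03 and miR-7094b-2-5p 4.33 CPM outside it.

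The study sequenced small RNA from the cortex of wild-type C57BL6 mice aged 7 to 8 weeks after a stroke model. In middle cerebral artery occlusion (MCAO) a filament blocks the artery that feeds much of the cortex on that side, here for 35 min, and is then withdrawn to restore flow. Mice recovered for 3, 6, 12 or 24 h, and ipsilateral cortex (the occluded side) and contralateral cortex were dissected. Sham mice had anaesthesia and exposed arteries but no filament, and the labels do not give their hemisphere. Each of the 9 groups (sham, and 2 hemispheres at 4 times) had 3 libraries, and libraries that share a replicate number come from the same day of surgery. The labels do not say whether the ipsilateral and contralateral libraries of a number come from the same mouse. No group carries a transgene or a deletion. Libraries held 856591 to 1903416 counts, so that 1 count stood for 0.409 to 1.36 CPM. Because whole cortex was sequenced, a change in the number of cells of a type and a change in the RNA of each cell cannot be told apart.

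Most miRNAs are cut from long hairpin transcripts by the nuclear enzyme Drosha and then by Dicer in the cytoplasm, which leaves a short duplex with a 5p and a 3p arm. A mirtron skips the first cut: a short intron is spliced out, debranched and folded, and its ends, set by the spliceosome, become the ends of the hairpin. In a tailed mirtron only 1 end of the hairpin coincides with a splice site, and the rest of the intron is trimmed away before Dicer acts. In mouse and human mirtrons the 5p arm is typically rich in G and the 3p arm in C and U, since the 3p arm holds the polypyrimidine tract that precedes the AG of the splice acceptor. Within the arm, bases 2 to 8 form the seed, the stretch that pairs with target mRNAs.

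RefSeq (GRCm38.p6) held the mature sequence of 176 of the 200 members. The sequences below belong to 9 of the 12 members with the largest rise between hemispheres at 24 h, described further on, and are written 5′ to 3′ with the seed in capitals. They show how the seeds differ, and most are rich in G; miR-7029-5p, with 34.8% G and 39.1% C, is not.

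miR-6968-5p: aGGGGGCGagggggcccugugg
miR-6937-5p: uAGCUGUAagggcugggucugugu
miR-6945-5p: uCCUGGGAggggcagccccugg
miR-6993-5p: aGUGGGAGaaacgggugucuguc
miR-7036a-5p: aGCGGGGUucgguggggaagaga
miR-7084-5p: uAGAGGAUagagguagagagu
miR-7087-5p: aGGCAGGUguggagcuggucu
miR-7029-5p: uCUGGACGcucggcugccagcgc
miR-6973a-5p: uACGGUGGgagggguggaguug

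For comparison, those of the 10 most abundant members that were not called between hemispheres at 24 h had these sequences.

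miR-7081-5p: aGAGGAGGgugcucggccggggauua
miR-6931-5p: uGGGGUGGggagugggggacu
miR-7060-5p: gUGAGUGCuggguagaauggga
miR-7044-5p: gUGUGGUGgugguggcggc
miR-6924-5p: aGAGGAUGgggauuuggcgaagu
miR-7000-5p: aGGGGACAgguaucuggacaga
miR-6995-5p: cUGGGAGUagaagggggaaacca

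The label of the group as rich in mirtrons was checked against the gene annotation. RefSeq hairpins of 171 members (172 hairpins, since miR-6967 has 2 places) were set beside the introns of GENCODE release M21, on the same build and strand. The 3′ end of the hairpin fell exactly on the last base of an annotated intron in 159 of 172 hairpins (92.4%), against 17 of 761 other miRNA hairpins with an entry in the table (2.23%). That exact match was counted after the distances had been seen. With up to 10 bases allowed, the share was 97.1% (167 hairpins) for the members and 5.12% (39) for the other hairpins. Only 15 hairpins (8.72%) matched both ends of an intron within 10 bases, as a whole-intron mirtron would, and 152 matched the acceptor end alone. Over all 167 whose acceptor end matched, the median intron was 457 bases and the median hairpin 66. The form most common in the group was therefore a hairpin at the acceptor end of a longer intron. The exceptions were miR-6927-5p (in Mllt6), miR-6936-5p (Sirt7) and miR-6977-5p (Ptprs), whose hairpins touched the donor end alone, miR-7036b-5p, inside an intron of Add1, and miR-7025-5p, partly over an exon of Pdgfra.

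**Figure D1:**
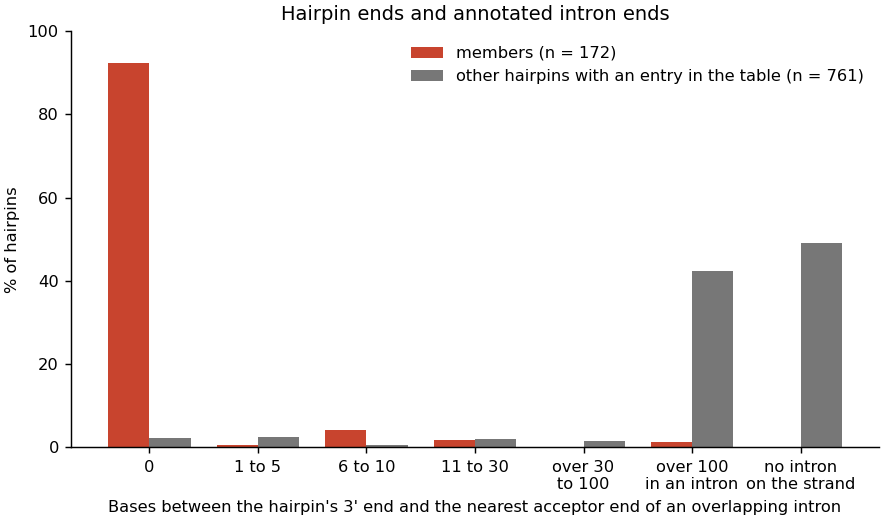
Distance in bases (x axis) between the 3′ end of each hairpin and the nearest acceptor end of an annotated intron that overlaps it on its strand, as a percent of hairpins (y axis), for the 172 member hairpins in red and 761 other miRNA hairpins in grey. The member bar at a distance of 0 stands at 92.4%, and that of the other hairpins at 2.23%.

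The following 4 hairpins show the forms side by side, with the 5p arm in capitals and, at the end, the AG of the splice acceptor in capitals. The first is that of miR-6968, at chr17:26935472-26935539 on the plus strand, in an intron of Phf1 of 142 bases. The next is that of miR-7081, at chr9:20914090-20914164 on the minus strand, in an intron of Dnmt1 of 1632 bases. The last pair fill their introns from donor to acceptor: miR-7058, at chr7:126367971-126368045 on the minus strand in an intron of Lat of 75 bases, and miR-7060, at chr7:127489251-127489387 on the plus strand in an intron of Fbrs of 137 bases.

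miR-6968: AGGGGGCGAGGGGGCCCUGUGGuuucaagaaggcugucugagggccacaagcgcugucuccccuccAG
miR-7081: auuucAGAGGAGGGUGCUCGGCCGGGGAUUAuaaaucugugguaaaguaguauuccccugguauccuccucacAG
miR-7058: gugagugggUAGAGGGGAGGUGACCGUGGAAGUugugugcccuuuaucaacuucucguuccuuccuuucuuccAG
miR-7060: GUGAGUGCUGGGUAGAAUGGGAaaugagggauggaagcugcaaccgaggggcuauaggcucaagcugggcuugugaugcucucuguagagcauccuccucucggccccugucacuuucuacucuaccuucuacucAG

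Among the 176 members with a sequence, G made up 44.2% of bases on average and C 14.3%. The 3p arms of the same numbers had the opposite make-up, with 15.6% G and 40.1% C. The other tested 5p entries had 29.6% G and 20.6% C. A run of GGG stood in 133 members (75.6%), against 28.6% of the other tested 5p entries. The seeds were diverse: the 176 sequences held 155 seeds, and only 39 members shared a seed with another member. No member with a sequence shared its seed with the 18 most abundant entries that had one.

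Members were low in abundance, apart from a few. The median of the member means was 8.86 CPM, beside 11.1 CPM for all entries and 9.61 CPM for the 3p arms of the same numbers. No member lacked counts altogether, 170 were detected in each of the 27 libraries, and 169 had a mean of at least 5 CPM. Around that level, miR-6941-5p (4.82 CPM), miR-6926-5p (4.93) and miR-6897-5p (just under 5) fell short, and miR-6903-5p (5.05), miR-7066-5p (5.08) and miR-7020-5p (5.28) passed. A filter on low counts kept 168 members for testing, among 1470 entries in all. It removed 32 members with means between 1.16 and 5.65 CPM, which were not tested in the fit of all libraries. Some of them passed the filter when it was applied again without a library. In that filter an entry can pass through the group in which it is high, so counts over the tested members are descriptions of those members alone.

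miR-7081-5p, from an intron of the DNA methyltransferase gene Dnmt1, was by far the most abundant, with a mean of 1157 CPM, and held 25.0% of all member counts. The 10 most abundant members together held 49.5%. Across libraries its level ranged widely: 1984, 326 and 1465 CPM in sham, 1145, 2048 and 941 CPM in contralateral cortex at 24 h, and 663, 902 and 1975 CPM in ipsilateral cortex at 24 h. Those groups overlapped, and the log2 fold change of the last over the contralateral group was -0.22 ± 0.58 (SE; edgeR quasi-likelihood test, adjusted p = 0.873). The next most abundant were miR-6937-5p (mean 267 CPM), miR-6968-5p (141), miR-6931-5p (126), miR-7060-5p (124) and miR-7044-5p (101), followed by miR-6924-5p (90.4), miR-7000-5p (81.9), miR-7040-5p (67.7) and miR-6995-5p (67.3). These means cover all 27 libraries, including the ipsilateral groups in which some members rose. In sham, means were 40.1 CPM for miR-6937-5p, 11.9 for miR-6968-5p and 8.10 for miR-7040-5p, beside 115 for miR-6931-5p. Arms of different sequence are not ligated and amplified alike, so this order is that of counts.

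Before the comparisons, libraries that stood apart need to be named. In ipsilateral cortex at 24 h, library 1 had the highest summed share of member counts, and at 12 h library 3 did. The calls, the summed share and the largest changes are given below with and without these libraries. The cortex markers miR-124-3p, miR-9-5p and miR-128-3p were abundant in every library, but at 24 h their sum was lower in ipsilateral (64237 to 96532 CPM) than in contralateral cortex (102256 to 152369 CPM), with no overlap. Markers of epithelium (6 of 6 in the table) reached 28678 CPM in sham library 2 and 25015 CPM in a library of ipsilateral cortex at 6 h. At 24 h their sum was 561 to 941 CPM in ipsilateral and 434 to 490 CPM in contralateral cortex, without overlap. That difference lay mostly in miR-183-5p (mean 467 against 211 CPM), with miR-182-5p at 134 against 121 CPM. The means of miR-200a-3p, miR-200b-3p, miR-429-3p and miR-96-5p were lower in ipsilateral cortex. Summed markers of leukocytes (5 of 5 in the table) ran from 1014 to 1563 CPM in ipsilateral and from 1430 to 2064 CPM in contralateral cortex at 24 h. Those of endothelium (1 of 2) ran from 866 to 1349 and from 1612 to 1870 CPM, and those of erythrocytes (3 of 4) from 139 to 195 and from 186 to 229 CPM. Those of choroid plexus (2 of 2) ran from 2233 to 2809 and from 2826 to 5321 CPM, those of muscle (3 of 3) from 82.6 to 121 and from 181 to 199 CPM, and those of oligodendrocytes (2 of 3) from 977 to 1788 and from 1787 to 2512 CPM. The part of these markers in the members' change was not tested.

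In sum, the members took a larger share of the library in ipsilateral cortex at 24 h. The sum is weighted by its most abundant members, and the share is of unscaled totals. On those totals the 24 h median log2 fold change over all tested entries was also above 0, at 0.57. The members made up 0.389 ± 0.159% of counts in sham (SD, n = 3) and between 0.289% and 0.438% in the contralateral groups. In ipsilateral cortex the share was 0.516 ± 0.316% at 3 h, 0.342 ± 0.0639% at 6 h, 0.517 ± 0.317% at 12 h and 1.15 ± 0.693% at 24 h. At 24 h the ipsilateral libraries stood at 1.95%, 0.745% and 0.761% and the contralateral ones at 0.347%, 0.355% and 0.347%. Wilson 95% intervals for counting error ran from 1.93% to 1.98% in the highest library and from 0.346% to 0.365% in the highest contralateral one. Each ipsilateral library at 24 h lay above each sham and contralateral library, the highest of which was contralateral library 1 at 3 h with 0.598%. Without library 1 the ipsilateral mean at 24 h was 0.753%. At 3 h and 12 h the ipsilateral libraries spread over the whole contralateral range, from 0.245% to 0.863% and from 0.173% to 0.796%. The 3p arms of the same numbers showed the same shape, with 0.469 ± 0.0322% in contralateral and 1.49 ± 0.913% in ipsilateral cortex at 24 h.

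**Figure D2:**
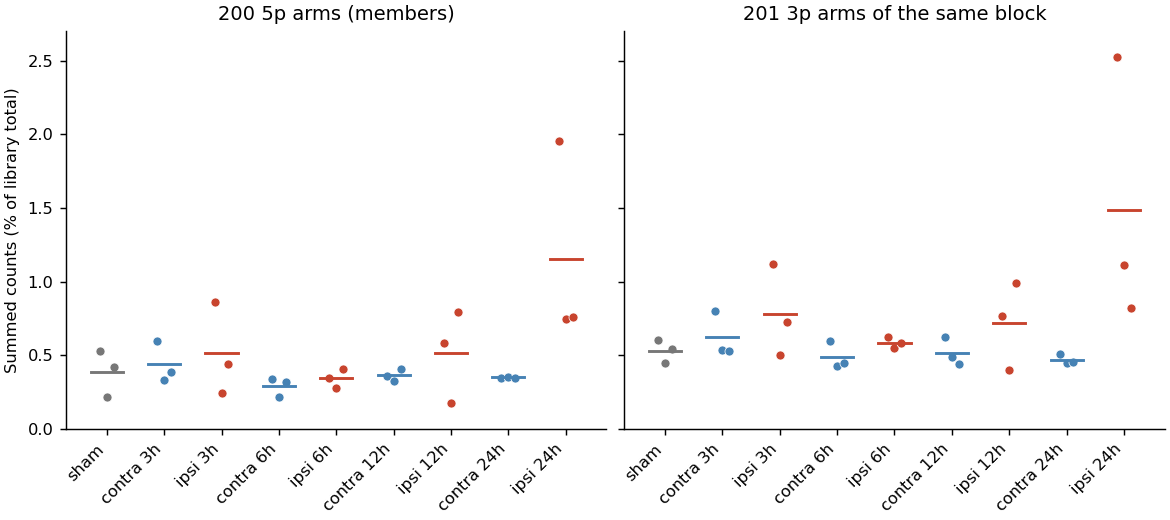
Summed counts as a percent of the library total (y axis) in each of the 9 groups (x axis), for the 200 5p arms on the left and the 201 3p arms of the same numbers on the right; points are libraries and bars are group means. The mean of ipsilateral cortex at 24 h is the highest in both panels (1.15% and 1.49%), with library 1 well above the other two, and some ipsilateral libraries at 3 h and 12 h reach the level of its lower libraries.

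No member passed the test between hemispheres in the first hours. All 27 libraries were fitted together with the quasi-likelihood method of edgeR, with Benjamini-Hochberg adjustment over the 1470 tested entries, and a member was called at an adjusted p under 0.05. At 3 h 0 of 168 members were called, as were 0% of all entries. At 6 h the counts were the same, 0 of 168 and 0% of all entries. The unadjusted p was under 0.05 for 8 members at 3 h (4.76%, beside 3.95% of all entries) and 9 at 6 h (5.36%, beside 4.35%). DESeq2 called 2 members at 3 h (miR-6968-5p and miR-7082-5p) and 0 at 6 h, and its counts over all entries at these times are not given. The smallest adjusted p in edgeR belonged to miR-6968-5p at both times, at 0.182 and 0.282. Its levels at 3 h were 129, 41.8 and 81.9 CPM in ipsilateral and 15.1, 11.6 and 11.8 CPM in contralateral cortex. At 6 h they were 24.9, 57.6 and 141 CPM against 22.1, 6.43 and 9.86 CPM. Neither pair of groups overlapped, although the lowest ipsilateral library at 6 h was close to the highest contralateral one. Ipsilateral groups lay wholly above contralateral ones in 14 members at 3 h (8.33%, beside 6.39% of all entries) and 19 at 6 h (11.3%, beside 7.48%). They lay wholly below in 3 at 3 h (beside 2.65%) and 6 at 6 h (beside 3.2%).

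At 12 h 7 members rose in ipsilateral over contralateral cortex and none fell, which is 4.17% of the tested members beside 4.35% of all tested entries, a share near the background. The 7 were miR-6968-5p (log2 fold change 5.13 ± 0.78), miR-7040-5p (3.88 ± 0.85), miR-6937-5p (3.86 ± 0.83), miR-7082-5p (2.30 ± 0.57), miR-6953-5p (2.27 ± 0.56), miR-7036a-5p (2.22 ± 0.65) and miR-6987-5p (2.10 ± 0.53), with edgeR adjusted p between 5.35e-04 and 0.0489. miR-6968-5p stood at 183, 73.6 and 595 CPM in ipsilateral and at 7.48, 3.80 and 13.6 CPM in contralateral cortex. miR-7040-5p stood at 31.8, 28.2 and 360 CPM against 8.55, 6.65 and 13.6 CPM. In both, all 3 ipsilateral libraries were above all 3 contralateral ones, and library 3 was far above the other ipsilateral libraries. Library 3 was the highest of its group in all 7. Without it only miR-6968-5p was called (log2 fold change 3.98), and without library 2, the lowest of the group in summed share, 15 members were. Without contralateral library 2, 2 members were called (miR-6937-5p and miR-6968-5p), and 2 without contralateral library 3 (miR-6968-5p and miR-7040-5p). Without contralateral library 1 5 were called: miR-6968-5p, miR-6937-5p, miR-7040-5p and miR-6953-5p were higher and miR-6959-5p lower (-1.41). Shares over all entries are not given for these fits with a library left out. A fit of the 6 libraries alone called 0 members at 12 h, and 0 of all entries. In edgeR on all libraries 28 members had an unadjusted p under 0.05 at 12 h (16.7%, beside 11.2% of all entries). DESeq2 called 10 members higher, beside 78 of all 1470 entries. The ipsilateral group lay wholly above the contralateral one in 14 members (8.33%, beside 5.99% of all entries) and wholly below in 7 (4.17%, beside 2.72%).

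Most calls were made at 24 h. Of 168 tested members, 33 rose in ipsilateral cortex (19.6%), beside 11.8% of all tested entries, and none fell, beside 1.43% (13.3% in either direction). With the day of surgery as a block 39 members rose (23.2%), beside 13.5% of all entries, and none fell, beside 6.53%. Among the 3p arms of the same numbers 21 of 175 rose (12.0%) and none fell. The other 5p entries gave 48 higher and 16 lower among 454. The median log2 fold change was 0.53 over the tested members, 0.27 over the 3p arms, -0.11 over the other 5p entries and 0.08 over all tested entries. It was above 0 in 126 of 168 members (75.0%). In 42 members (25.0%) all ipsilateral libraries lay above all contralateral ones, beside 16.3% of all entries. The reverse held for miR-6963-5p and miR-6986-5p, 1.19% of the members beside 12% of all entries, and neither was called. These shares describe the members and were not tested as a set.

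**Figure D3:**
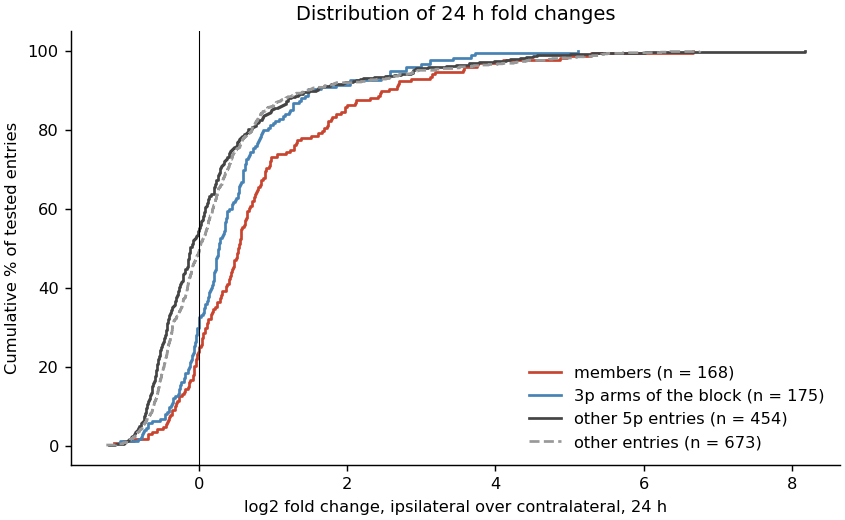
Cumulative percent of tested entries (y axis) by log2 fold change of ipsilateral over contralateral cortex at 24 h (x axis), for the 168 tested members, 175 3p arms of the same numbers, 454 other 5p entries and 673 other entries. The member median is 0.53, to the right of 0.27 for the 3p arms and -0.11 for the other 5p entries, and 75.0% of members lie above 0.

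The 33 called members ranged in log2 fold change from 1.31 to 6.66, with a median of 2.57, and 24 of them were at 2 or more. Their median level was 8.20 CPM in contralateral and 61.3 CPM in ipsilateral cortex at 24 h. In earlier ipsilateral groups it was 14.4 CPM at 3 h, 12.8 at 6 h and 29.7 at 12 h, and in sham 10.9 CPM. Ipsilateral cortex at 24 h was the highest of the 9 groups in mean level for all 33. The 33 were called for being higher there than in contralateral cortex, so this rank follows largely from the choice. In 28 the 24 h groups did not overlap, and the 5 whose groups did were miR-6969-5p, miR-6997-5p, miR-7016-5p, miR-7058-5p and miR-7069-5p. In 25 each ipsilateral library at 24 h was above each sham and contralateral library of the study, a share (75.8%) close to that of all entries called higher (77.6%). Of the 10 members most abundant over all libraries, 3 were among the called: miR-6968-5p, miR-6937-5p and miR-7040-5p. That ranking includes their ipsilateral levels. In sham the highest member mean was 40.1 CPM among the called and 1258 CPM among tested members not called, with medians of 10.9 and 9.29 CPM.

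miR-6968-5p, from the intron of Phf1, a gene for a Polycomb-associated protein, had the largest change of the group. It stood at 10.4, 4.20 and 8.16 CPM in contralateral libraries at 24 h and at 1310, 679 and 326 CPM in ipsilateral ones. Sham libraries held 9.71, 14.0 and 12.1 CPM. All 3 ipsilateral libraries were far above the contralateral and sham ones, and the log2 fold change over contralateral cortex was 6.66 ± 0.82 (SE; edgeR adjusted p = 1.31e-05). Its 5p arm, shown above, holds 2 runs of GGGGG.

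miR-6937-5p comes from the end of an intron of Adi1, an enzyme of methionine salvage, at chr12:28679325-28679389 on the plus strand. It stood at 52.7, 34.4 and 26.8 CPM in contralateral and at 3316, 705 and 468 CPM in ipsilateral libraries at 24 h. The groups did not overlap, and the log2 fold change was 5.29 ± 0.88 (edgeR adjusted p = 1.30e-04). Library 1 held more than the other two ipsilateral libraries together.

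miR-6945-5p lies in an intron of Pdlim7, which encodes a cytoskeletal LIM protein, at chr13:55507625-55507692 on the minus strand, and overlaps an exon of another Pdlim7 transcript. It was low in contralateral cortex at 24 h, with 4.71, 2.52 and 3.50 CPM, and reached 247, 78.4 and 17.7 CPM in ipsilateral cortex. The groups did not overlap (log2 fold change 4.97 ± 0.96, edgeR adjusted p = 5.60e-04). miR-7040-5p stood at 14.1, 11.8 and 14.0 CPM in contralateral and at 768, 328 and 77.2 CPM in ipsilateral libraries (log2 fold change 4.87 ± 0.85, edgeR adjusted p = 2.25e-04). For both, the ipsilateral libraries spread widely, and even the lowest was above each contralateral library at 24 h.

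The level of miR-6971-5p also differed between replicate numbers. Library 1 was its highest in sham (37.2, 12.2 and 7.06 CPM), in contralateral cortex at 24 h (24.5, 2.52 and 11.7 CPM) and in ipsilateral cortex at 24 h (499, 106 and 57.1 CPM). Its log2 fold change was 4.10 ± 1.00 (edgeR adjusted p = 0.00479), and it was the only one of the 12 largest changes to lose its call without ipsilateral library 1 (adjusted p = 0.14).

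miR-6993-5p, from the acceptor end of an intron of the fatty acid desaturase gene Fads1 (chr19:10191375-10191439, plus strand), stood at 1.88, 2.52 and 3.50 CPM in contralateral and at 71.0, 22.2 and 15.4 CPM in ipsilateral cortex (log2 fold change 3.76 ± 0.67, edgeR adjusted p = 2.96e-04). miR-7036a-5p, from Srrt, whose product serves in RNA processing at the cap (chr5:137296624-137296688, minus strand), stood at 12.2, 6.72 and 5.83 CPM against 229, 80.5 and 29.3 CPM (3.75 ± 0.66, edgeR adjusted p = 2.30e-04). Neither pair of groups overlapped. miR-7084-5p, from the elongation factor gene Elof1 (chr9:22113944-22114013, minus strand), stood at 12.2, 4.20 and 8.16 CPM against 212, 59.0 and 23.9 CPM (3.58 ± 0.70). miR-7087-5p, from Sidt2, a lysosomal membrane protein gene (chr9:45939521-45939590, minus strand), stood at 6.59, 5.88 and 11.7 CPM against 164, 94.4 and 25.5 CPM (3.57 ± 0.68). In both the groups were apart and ipsilateral library 1 was the highest.

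The remaining members of the 12 largest changes were miR-7023-5p (log2 fold change 3.18 ± 0.69), miR-7029-5p (3.15 ± 0.64) and miR-6973a-5p (3.12 ± 0.68), each with an edgeR adjusted p of at most 0.00174. miR-7029-5p, from Gcn1l1, a gene of the amino acid starvation response (chr5:115580949-115581009, plus strand), stood at 16.0, 11.8 and 15.2 CPM in contralateral and 257, 62.4 and 61.7 CPM in ipsilateral cortex. miR-6973a-5p, from the lymphotoxin beta gene Ltb (chr17:35194972-35195049, plus strand), stood at 4.71, 4.20 and 12.8 CPM against 113, 45.1 and 25.5 CPM. Both sets of groups were apart. The hairpin of miR-7029 ran 7 bases past the annotated acceptor, whereas that of miR-6973a ended on it.

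**Figure D4:**
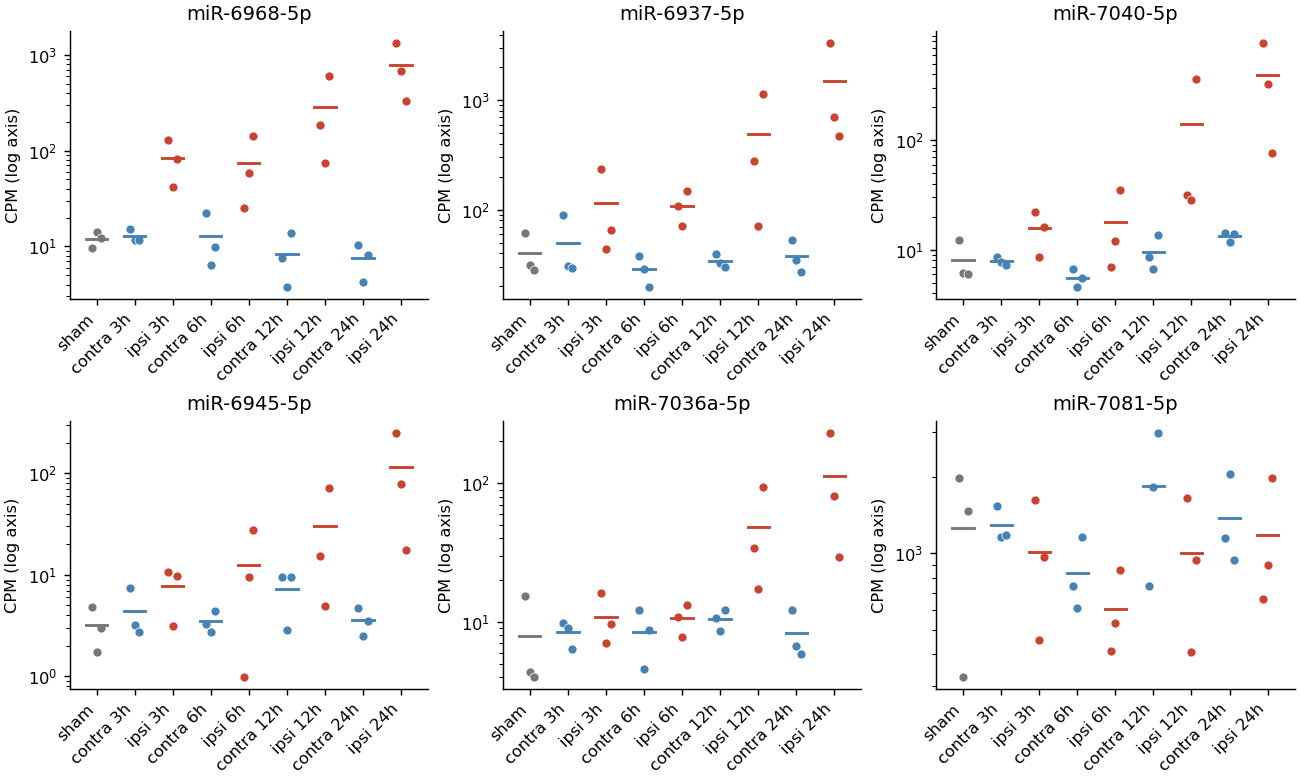
Level in CPM on a logarithmic axis (y axis) in each group (x axis) for 5 called members and for the most abundant member, miR-7081-5p; points are libraries and bars are group means, with sham in grey, contralateral in blue and ipsilateral in red. The 5 called members were chosen for their rise at 24 h. In each of them the ipsilateral mean at that time is the highest of the 9 group means. In miR-7081-5p the sham, contralateral and ipsilateral points at 24 h overlap.

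The counts depended on ipsilateral library 1. Ipsilateral library 1 was the highest of its group at 24 h in all 33 called members, and library 3 was the highest of the 12 h group in 32 of them. Without ipsilateral library 1 at 24 h, 19 members were called in place of 33, of which 18 were higher and among the 33. That fit tested 174 members, so that 10.3% were called higher, beside 6.82% of all 1525 entries it tested. In it the member median was 0.25 (log2) in place of 0.53, beside -0.03 over all entries, and 65.5% of members were above 0, beside 48.1% of all entries. All ipsilateral libraries left lay above all contralateral ones in 44 members (25.3%), beside 17.4% of all entries. Of the largest changes, miR-6968-5p kept a log2 fold change of 6.05, while miR-6937-5p had 3.94, miR-7040-5p 3.93, miR-6945-5p 3.73, miR-7087-5p 2.93, miR-6993-5p 2.82, miR-7036a-5p 2.71 and miR-7084-5p 2.35. miR-7023-5p had 2.47, miR-6973a-5p 2.34 and miR-7029-5p 2.11. All 11 were still called, with edgeR adjusted p of at most 0.0357. The 15 that were lost were miR-6971-5p and members with log2 fold changes of at most 2.68, such as miR-6969-5p, miR-6914-5p and miR-7058-5p. The remaining call of that fit was a fall, in miR-6963-5p (log2 fold change -1.58, edgeR adjusted p = 0.0359). Without ipsilateral library 3 the count was 38, of which 37 were higher (20.8%, beside 13.1% of all 1539 entries that fit tested). The other, miR-7066-5p, was lower (-1.81, edgeR adjusted p = 0.0328), beside 1.49% of all entries. miR-7066-5p did not pass the filter on low counts when all libraries were used. These 2 members are named because they were the exceptions to the direction of the calls. No member was called lower under any of 8 other fits to all libraries or to the 6 compared, in which the count of members ran from 31 to 43, and 27 of the 33 were called in each of these fits.

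The list of entries whose reads are reported to match ribosomal RNA was high in the same libraries, mostly through 1 entry, miR-6240. The summed level of miR-6240, miR-712-5p and miR-712-3p (3 of 3 in the table) was 42.4 to 93.3 CPM in contralateral cortex at 24 h and 56.7 to 85.8 CPM in sham. It was 1631 to 4638 CPM in ipsilateral cortex at 24 h, highest in library 1, and 178 to 3075 CPM at 12 h. miR-6240 made up 2706 CPM of the ipsilateral mean of 2765 CPM at 24 h. It and miR-712-3p were called at both times, and miR-712-5p was not (edgeR adjusted p = 0.149 at 12 h and 0.281 at 24 h). Scaling factors (TMM) were 1.18 to 1.43 in ipsilateral cortex at 24 h and 0.829 to 0.990 in contralateral cortex. Scaled by totals alone, the 24 h median over all tested entries was 0.57 (log2) in place of 0.08, with 226 entries higher and 0 lower in place of 174 and 21, and that of the tested members was 1.01 in place of 0.53. The part of ribosomal fragments, or of RNA quality, in the members' change was not tested.

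Of the 10 most abundant members, 7 were not called at 24 h, and their groups overlapped. miR-7060-5p, whose hairpin fills its Fbrs intron, stood at 103, 130 and 149 CPM in contralateral and 139, 83.3 and 204 CPM in ipsilateral cortex (log2 fold change 0.16 ± 0.33, edgeR adjusted p = 0.823). miR-6995-5p (0.05 ± 0.38) and miR-6924-5p (0.39 ± 0.38) overlapped between the hemispheres in the same way. For miR-6931-5p it was 0.84 ± 0.39, with an adjusted p of 0.181 in edgeR. miR-7000-5p, from Mapk8ip1, a scaffold of JNK signalling, stood at 92.3, 32.8 and 31.5 CPM in contralateral and 367, 101 and 77.9 CPM in ipsilateral cortex, with library 1 highest on both sides. It missed the threshold (log2 fold change 1.80 ± 0.75, edgeR adjusted p = 0.127) but passed it with the day of surgery as a block, at 1.67 and an edgeR adjusted p of 7.12e-04. Over all 135 tested members that were not called, log2 fold changes ran from -1.15 to 1.85 with a median of 0.37, and 93 were above 0.

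The comparisons with sham use the same ipsilateral libraries again, and all of them share the 3 sham libraries. At 24 h, of 168 tested members 32 rose (19.0%), beside 11.3% of all tested entries, and none fell (12.7% of all entries in either direction, 1.36% lower). The largest were miR-6968-5p (log2 fold change 6.01 ± 0.79), miR-7040-5p (5.56 ± 0.89), miR-6937-5p (5.21 ± 0.87), miR-6945-5p (5.10 ± 0.96), miR-7036a-5p (3.79 ± 0.66) and miR-6993-5p (3.73 ± 0.66), with edgeR adjusted p from 2.75e-05 to 4.08e-04. The count was 15 without ipsilateral library 1 and 20 without sham library 2, the library with the epithelial markers. At 12 h 9 members were higher than in sham and 2 lower, 6.55% of the tested members beside 5.44% of all entries in either direction (4.76% higher, 0.68% lower). The 2 that fell were miR-6933-5p, by 1.55 ± 0.44 on the log2 scale (edgeR adjusted p = 0.0372), and miR-7056-5p, by 1.26 ± 0.38 (edgeR adjusted p = 0.049). miR-6933-5p stood at 4.11, 2.45 and 2.65 CPM in ipsilateral cortex at 12 h and 8.90, 8.73 and 10.1 CPM in sham, but contralateral cortex at 12 h was as low, at 4.27, 4.75 and 1.36 CPM. DESeq2 called neither of them, with an adjusted p of 0.156 for miR-6933-5p and 0.151 for miR-7056-5p. Without ipsilateral library 3 only miR-6968-5p was called at 12 h, and without ipsilateral library 2 19 members were. Leaving out a sham library gave 2 members (miR-6968-5p and miR-7040-5p, without sham library 2 or 3) or 4 (without sham library 1, with miR-6937-5p and miR-7036a-5p). For the comparisons with sham, shares over all entries are not given for the fits with a library left out.

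At 3 h and 6 h 0 members were called against sham, beside 0% of all entries. The unadjusted p was under 0.05 for 10 and 5 members (5.95% and 2.98%, beside 5.85% and 3.67% of all entries), and DESeq2 called miR-6968-5p and miR-7082-5p at 3 h and miR-6968-5p at 6 h. Contralateral cortex gave 0 calls against sham at any time, again beside 0% of all entries. There the unadjusted p was under 0.05 for 3, 4, 12 and 6 members at 3, 6, 12 and 24 h (1.79%, 2.38%, 7.14% and 3.57%, beside 1.77%, 2.31%, 4.35% and 2.24% of all entries), and DESeq2 called 0 members at each time. For DESeq2 against sham, counts over all entries are not given.

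Whether the hemisphere difference of a member changed with time was tested jointly over the 4 times. In edgeR 0 of 168 members passed, beside 0.612% of all entries, and the smallest adjusted p was 0.0722, for miR-6968-5p, followed by miR-7045-5p (0.0876), miR-6987-5p and miR-7023-5p (both 0.137). The unadjusted p was under 0.05 for 18 members (10.7%, beside 9.32% of all entries). The count was 8 without ipsilateral library 3 at 12 h and 7 without ipsilateral library 3 at 24 h. Only miR-6968-5p was called without ipsilateral library 3 at 6 h or library 2 at 12 h. The shares of all entries in these left-out fits are not given. DESeq2 was not run on this joint test. A difference between hemispheres at any of the 4 times was called in 24 members (14.3%), beside 8.98% of all entries. Of the 33 members called at 24 h, the ipsilateral mean was above the contralateral mean in 30 at 3 h, 29 at 6 h and 32 at 12 h. The same counts over the other entries called at 24 h are not given, and edgeR called 0 members at 3 h and 6 h. All 7 members called at 12 h were also called at 24 h, in other libraries.

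Most called 5p arms had a 3p partner that was not called, as did most 5p arms without a call. For 148 hairpins both arms were tested at 24 h: in 27 only the 5p arm was called, in 15 only the 3p arm, in 2 both, and in 104 neither. The 2 pairs, miR-7011 and miR-7045, are 6.90% of the 29 5p calls with a tested partner and 11.8% of the 17 3p calls. Over all 175 tested 3p arms of the same numbers, 12.0% were called. Those 29 5p arms, picked for their rise, had a median log2 fold change of 2.46. Their 3p partners had one of 0.23, beside 0.27 over all 175 tested 3p arms. Across the 148 hairpins the log2 fold changes of the arms showed little relation (Pearson r = -0.09, Spearman rho = -0.04, across hairpins that share libraries).

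miR-6968 shows the contrast. Its 3p arm stood at 69.5 ± 54.1 CPM in contralateral and 40.6 ± 19.3 CPM in ipsilateral cortex at 24 h (SD, n = 3 each). On the log2 scale that is -0.78 ± 0.89 (SE; adjusted p = 0.649 in edgeR), beside 6.66 for its 5p arm. The 5p arm therefore made up 13.4 ± 10.8% of the counts of the hairpin in contralateral and 94.1 ± 3.27% in ipsilateral cortex. In miR-6945 the 5p share went from 19.2 ± 3.06% to 77.6 ± 16.8%, in miR-7036a from 42.2 ± 11.7% to 86.9 ± 10.8%, in miR-6914 from 26.8 ± 11.1% to 74.7 ± 8.81% and in miR-7087 from 5.97 ± 3.53% to 35.0 ± 22.3%. Without ipsilateral library 1 the ipsilateral means were 93.4% for miR-6968, 70.7% for miR-6945, 83.3% for miR-7036a, 70.4% for miR-6914 and 28.7% for miR-7087. These shares restate the arms' levels and were not tested on their own.

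miR-7045, in an intron of the chromatin remodeller gene Chd4, differed from these. Both arms rose, but the 3p arm rose from 40.5 ± 15.1 to 536 ± 238 CPM (log2 fold change 3.73 ± 0.65), while the 5p arm went from 6.63 ± 1.54 to 40.2 ± 32.6 CPM (2.57 ± 0.49, edgeR adjusted p = 4.79e-04). Its 5p share was 15.3 ± 7.20% in contralateral and 6.43 ± 2.38% in ipsilateral cortex. In miR-7044, whose 5p arm had 111, 73.9 and 58.3 CPM in contralateral and 124, 65.2 and 54.0 CPM in ipsilateral cortex, the 3p arm rose (log2 fold change 2.58, edgeR adjusted p = 7.42e-04).

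**Figure D5:**
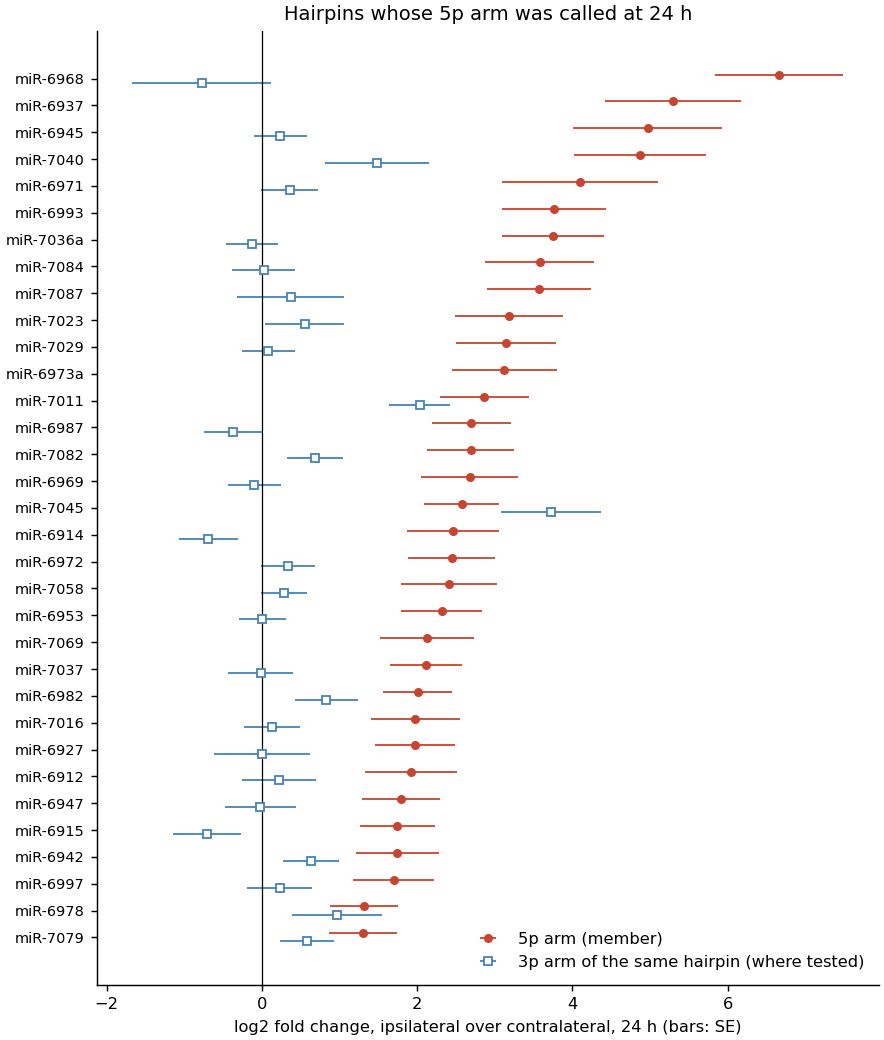
Log2 fold change of ipsilateral over contralateral cortex at 24 h (x axis, bars are standard errors) for the 33 hairpins whose 5p arm was called (y axis), with the 5p arm as a red point and its 3p arm, where tested, as a blue square. Most blue squares lie near 0, and miR-7011 and miR-7045 are the pairs in which both arms were called.

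Summed over all 200 hairpins, arm use overlapped between these groups. The 5p arms held 41.0 ± 7.49% of the counts of both arms in sham, 42.8 ± 1.89% in contralateral and 43.9 ± 3.98% in ipsilateral cortex at 24 h, and 40.2% over all libraries. The sum is weighted by miR-7081-5p, and without it the shares were 32.3 ± 2.38%, 32.5 ± 3.20% and 39.2 ± 2.97%. The ipsilateral libraries at 24 h (36.5% to 42.4%) then lay above the contralateral ones (29.5% to 35.8%), a difference that was not tested. The 5p arm had more counts than the 3p arm in 93 hairpins and fewer in 107. Some members were far below their partner, such as miR-6927-5p, with 10.3 CPM beside 331 CPM for its 3p arm.

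In some sets, members that share a seed differed in their calls, and in other sets no member was called. The largest sets of shared seeds had 3 members each, and their sequences are given with the seed in capitals.

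miR-6993-5p: aGUGGGAGaaacgggugucuguc
miR-6922-5p: uGUGGGAGgggacuguagagagg
miR-7008-5p: uGUGGGAGaugccaggagccguac
miR-6911-5p: uGGGCUGAgugggucuguggcau
miR-7028-5p: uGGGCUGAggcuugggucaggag
miR-7079-5p: aGGGCUGAggcagugaguccug
miR-7030-5p: uGGGGAGGuggcugugcuaguc
miR-7075-5p: cGGGGAGGaggacaugguuuu
miR-7076-5p: aGGGGAGGugguauggucuca

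Of the first set, miR-6993-5p rose at 24 h, while miR-6922-5p and miR-7008-5p had log2 fold changes of 0.54 and 0.46 and were not called. In the next set miR-7079-5p was called at 1.31, and miR-6911-5p and miR-7028-5p stood close by at 0.91 and 0.95 without a call. In the last set miR-7030-5p had 1.61 and miR-7075-5p -0.42, neither called, and miR-7076-5p was not tested. Among the pairs, miR-6904-5p (-1.15, not called) and miR-6914-5p (2.46, called) share a seed and differ in sign. Shared hosts were few: miR-6914-5p and miR-6915-5p, in different introns of Ankrd52, both rose (2.46 ± 0.59 and 1.75 ± 0.49), though like miR-7079-5p they lost their calls without ipsilateral library 1, and the other pairs were miR-7077-5p with miR-7078-5p in Cmip and miR-6921-5p with miR-6922-5p in Srebf1.

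The called members were somewhat richer in G than the rest. In the 27 with a sequence, G made up 48.4% of bases and the median GC content was 63.6%, beside 43.0% and 59.1% in the 120 tested members that were not called. GGGG stood in 48.1% of the former and 31.7% of the latter. Over 147 members GC content and log2 fold change at 24 h were related weakly (Spearman rho = 0.28), and over the other 1143 tested entries with a sequence rho was 0.38. All these entries share libraries and depth, and the part of base composition in the result was not tested. Hairpins of called members overlapped an exon of some transcript on their strand in 12 of 27 cases (44.4%), beside 22 of 115 (19.1%) for tested members without a call. The hairpin ended exactly at an acceptor in 24 of 27 called members (88.9%) and in 106 of 115 others (92.2%).

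Better known mirtrons outside the numbered block were looked up for comparison. Of the arms of miR-877, miR-1224, miR-1981 and miR-702, 7 of 8 were tested and none was called at 24 h. Their log2 fold changes lay between -0.70 (miR-1981-3p) and -0.13 (miR-702-3p and miR-1224-5p). A difference in response between these arms and the members was not tested.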

How the data were processed

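Small RNA from cortex was sequenced from TruSeq libraries with inserts of 15 to 35 bp as 69 bp single-end reads on a MiSeq, per the labels' protocols. The authors deposited a table of raw counts per miRNA entry for 27 libraries, whose values are whole numbers. The submitters' processing notes name Novoalign and edgeR without a role or version, and neither labels nor notes used here state the genome build, the annotation release or the treatment of reads with several matches. Reads of near-identical arms could therefore be shared between entries.

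From the counts, edgeR 4.0.16 (R 4.3.3) fitted 9 group means over all libraries with TMM scaling, filterByExpr and a quasi-likelihood test, with Benjamini-Hochberg adjustment over 1470 entries (99.87% of counts) and a threshold of 0.05. CPM are these counts per scaled library. DESeq2 1.42.0 and other scalings, filters, left-out libraries and the replicate block were alternatives. Per the series' design text, libraries with one number share a day of surgery; same-numbered libraries had a mean correlation of deviations of 0.207 over 108 pairs (lowest -0.475), and others -0.103 over 216. No libraries were identical, and replicates differed by at least 11.2 times counting noise (chi-square per degree of freedom). Hairpins and arms come from RefSeq (GRCm38.p6) and introns from GENCODE M21, read with Python 3.11.15. Intervals on shares are Wilson 95% and cover counting error only.

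Members and lists were chosen with earlier results of these data known. Named with values were up to 12 called members per direction between hemispheres and 6 against sham, the 8 with the smallest p for change over time, the 10 most abundant, those next to 5 CPM and the ends of the numbering, those that share a seed, and 3p partners.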

Additional observations from a re-analysis of the deposited data

How the results depend on the processing

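Between hemispheres, the count at 24 h ran from 31 to 43 members over 8 other fits and from 19 to 38 with 1 library left out. At 12 h it was 4 with TMM from abundant entries (miR-6937-5p, miR-6953-5p, miR-6968-5p and miR-7040-5p) and 0 with only the 6 libraries compared, and ran from 1 to 15 with 1 library left out. At 3 h DESeq2 called 2 and the 6 libraries alone 1 (miR-6968-5p). Against sham at 3 h DESeq2 called 2 and the 6 libraries alone 2 (miR-6968-5p and miR-6997-5p), with 0 to 1 when 1 library was left out; at 6 h DESeq2 called 1. Against sham at 12 h the 11 calls became 2 on total counts, 3 with TMM from abundant entries, 7 without a filter and 0 with the 6 libraries alone, and 1 to 19 with 1 library left out; at 24 h they ran from 15 to 35. A difference at any time was called in 18 to 31 members and a change over time in 0 to 8. The cause of these moves was not tested, beyond the fewer libraries in the fits that use fewer. All entries at 24 h split 174 higher to 21 lower, against 226 to 0 on total counts, 207 to 4 with TMM from abundant entries, 167 to 42 in DESeq2 and 198 to 96 with the replicate block. At 12 h between hemispheres, TMM from abundant entries called 39 of all entries. For the other fits and comparisons in this paragraph such counts are not given.

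The day of surgery as a replicate block pairs the libraries. With the block 39 members were called between hemispheres at 24 h, beside 198 higher and 96 lower of all 1470 entries. At 12 h 9 were (8 higher, and miR-6959-5p lower), beside 54 higher and 1 lower of all entries. Against sham the block gave 39 at 24 h and 10 at 12 h (7 higher, 3 lower). A hemisphere difference at any time was called in 30 members and a change over time in 0. Counts over all entries are not given for the block against sham or for these joint tests. The block gained miR-7000-5p between hemispheres at 24 h and lost miR-6945-5p (adjusted p = 0.103 in edgeR) and miR-7023-5p (0.107) against sham at 12 h.

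With 1 library left out, the mean summed share ran from 0.318% to 0.475% in sham, 0.753% to 1.36% in ipsilateral cortex at 24 h, 0.377% to 0.689% at 12 h, 0.311% to 0.375% at 6 h and 0.343% to 0.652% at 3 h. In contralateral cortex it ran from 0.358% to 0.491%, 0.266% to 0.327%, 0.343% to 0.384% and 0.347% to 0.351% at 3, 6, 12 and 24 h, and over members of at least 5 CPM it was 0.340% at 24 h. Over hairpins with both arms at 5 CPM or more, the 5p share was 31.0% in sham, 30.5%, 29.4%, 27.5% and 31.2% in contralateral and 31.0%, 31.0%, 31.2% and 35.0% in ipsilateral cortex at 3, 6, 12 and 24 h, and 30.9% over all. With 30 bases allowed, 38 hairpins matched both intron ends. Of the values of named members under other settings, 697 kept their side of the threshold, 84 lost a call, 16 gained one and 0 reversed. The median member level was 8.86 CPM and 1 count stood for 0.409 to 1.36 CPM. How far depth limited the calls was not tested.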
